A study of Mus musculus with 12 samples.

Results

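Genes for heat shock proteins, their co-chaperones and the CCT folding ring were followed across 4 groups of mouse kidneys. They were chosen by gene symbol, with no measured value in the rule, though earlier results of these data were known. Included were small heat shock proteins, the Hsp70 and Hsp90 families, Hsp60 with Hsp10, and J-domain proteins of the Dnaja, Dnajb and Dnajc classes. So were the CCT subunits with Tcp1, Bag1 to Bag6, and the regulators Hsf1, Hsf2 and Hspbp1. The rule found 83 of the 13124 genes in the count table. A further 27 RefSeq symbols that match it were not analysed here, and 17 of those carry pseudogene or related-sequence names. By family there were 6 small heat shock proteins, 13 Hsp70 members, 3 Hsp90 members, 2 of the Hsp60 and Hsp10 pair, 4 Dnaja, 9 Dnajb, 26 Dnajc, 9 CCT, 6 Bag, 3 regulators and 2 genes that match by name alone (Hspb11, which codes for an intraflagellar transport protein, and Hspbap1).

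The kidneys came from male C57BL/6 mice and were perfused and taken whole, so each library holds RNA of every cell type in the organ. Kidneys 1 to 3 came from sham-operated, untreated mice. The other 9 came from mice with ischaemia-reperfusion injury, in which blood flow to the kidney is stopped and then restored: kidneys 4 to 6 had an isotype control antibody, kidneys 7 to 9 an antibody against the G-CSF receptor (anti-G-CSFR), and kidneys 10 to 12 an antibody against complement C5 (anti-C5). Kidneys were taken 24 h after surgery, and antibodies were given 24 h before the injury. Since the sham mice had no antibody, injury and antibody exposure cannot be told apart in the comparison of isotype with sham. The sources used here give neither the age of the mice nor the length of the ischaemia.

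Chaperones bind proteins that are unfolded and help them to fold, to be moved or to be destroyed. Hsp70 proteins work in a cycle of ATP hydrolysis that J-domain proteins start and nucleotide exchange factors, among them the Bag proteins and Hspbp1, reset. Hsp90 takes clients on from Hsp70, the CCT ring folds actin and tubulin, and small heat shock proteins hold unfolded proteins without using ATP. Hsf1 raises the cytosolic members after heat and other protein damage, whereas members inside the endoplasmic reticulum belong to the unfolded protein response. The kidney's tubules are rich in mitochondria and are the cells most exposed to ischaemia.

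Promoter letters known for these controls were looked for in the RefSeq windows of 250 bases before to 50 bases after each gene's start (GRCm38.p6), on both strands. Of the 83 genes, 66 have a window. The heat shock element letters GAANNTTC were in 14 of the 66 windows (21.2%), against 7.11% of the 10428 tested genes with a window. The arrangement TTCNNGAA was in 8 of 66 (12.1%, against 8.49%), and the 3-unit element, GAANNTTC followed directly by NNGAA and so holding both of them, in 4 of 66 (6.06%, against 0.566%). The endoplasmic reticulum stress element, CCAAT and CCACG with 9 bases between them, was in 3 of 66 (4.55%, against 0.163%). The bases before 4 starts are shown because they belong to 2 genes with heat shock element letters, the small heat shock protein gene that rose most and an inducible Hsp70 gene, and to 2 endoplasmic reticulum chaperone genes. Each is written 5′ to 3′ on the gene's own strand, with the fixed letters of GAANNTTC or of the stress element (on either strand) in capitals.
Hspb1, 250 bases, chr5:135887669-135887918, + strand: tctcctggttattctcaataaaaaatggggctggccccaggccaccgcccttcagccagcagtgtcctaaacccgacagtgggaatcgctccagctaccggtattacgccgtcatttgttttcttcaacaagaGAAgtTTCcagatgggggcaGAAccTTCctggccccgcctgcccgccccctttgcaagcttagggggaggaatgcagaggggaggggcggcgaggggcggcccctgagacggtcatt
Hspa1b, 250 bases, chr17:34959239-34959488, − strand: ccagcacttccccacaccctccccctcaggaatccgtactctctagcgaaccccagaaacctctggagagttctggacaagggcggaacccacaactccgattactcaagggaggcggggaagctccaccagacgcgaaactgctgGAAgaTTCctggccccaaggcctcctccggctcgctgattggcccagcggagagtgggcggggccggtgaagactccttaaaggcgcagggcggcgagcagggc
Hsp90b1, 180 bases, chr10:86705515-86705694, − strand: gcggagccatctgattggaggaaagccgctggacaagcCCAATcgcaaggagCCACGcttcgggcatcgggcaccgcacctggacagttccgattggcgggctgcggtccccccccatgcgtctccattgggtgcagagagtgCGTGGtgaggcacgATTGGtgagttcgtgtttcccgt
Dnajc3, 250 bases, chr14:118937682-118937931, + strand: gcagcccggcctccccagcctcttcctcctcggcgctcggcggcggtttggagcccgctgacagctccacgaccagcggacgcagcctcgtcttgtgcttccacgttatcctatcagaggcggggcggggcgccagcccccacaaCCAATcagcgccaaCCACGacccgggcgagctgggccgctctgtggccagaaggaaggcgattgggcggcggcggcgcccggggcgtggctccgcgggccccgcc
In Hspb1 the letters begin 117 and 97 bases before the start, in Hspa1b 104 bases before it. The stress element begins 105 bases before the start of Dnajc3, and in Hsp90b1 it begins 212 bases before the start and, on the other strand, 107 bases before it. The Hsp90b1 stretch runs from 250 to 71 bases before the start, and the other 3 run up to the start. A match is a run of letters, not a measured binding site.

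Libraries held 13200930 to 16324215 counts, and the 83 genes together took 1.14 to 1.55% of them (isotype 1.44 to 1.55%, sham 1.23 to 1.33%, anti-G-CSFR 1.15 to 1.24%, anti-C5 1.14 to 1.36%). Levels are given as CPM, counts relative to the library total after TMM scaling, in the order of the kidney numbers, with n = 3 in each group. Kidney 4 differed from the other isotype kidneys, and kidneys 9 and 11 from their groups. The summed level of 10 tubule injury markers was 1499 to 2420 CPM in sham, 34190 to 39110 in isotype, 1755 to 12160 under anti-G-CSFR (the highest in kidney 9) and 1685 to 14630 under anti-C5 (the highest in kidney 11). That of 10 proximal tubule markers was 11730 to 12760, 1661 to 2414, 9959 to 11370 and 7800 to 11910 CPM in the same order. The 9 smooth muscle and pericyte markers summed to 195 to 232, 612 to 870, 178 to 265 and 202 to 339 CPM, and 9 of 10 neutrophil markers, those measured, to 8.43 to 10.9, 51.7 to 136, 2.39 to 3.11 and 8.53 to 127 CPM. Among the smooth muscle and pericyte markers Rgs5 fell in isotype against sham (log2 change −0.51, called by edgeR). Myh11 and Cnn1 were not called, and Acta2, Des, Lmod1, Myl9, Pdgfrb and Tagln rose. In each of these 4 lists no measured marker was below 1 CPM in every kidney. Their part in the chaperone results was not tested, and in whole kidneys fewer cells of a type and less RNA per cell cannot be told apart.

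In the isotype kidneys 4 of 6 small heat shock protein genes rose against sham and none fell, and of 9 CCT genes 8 rose and 1 fell. Of 8 genes for chaperones of the endoplasmic reticulum 4 fell, 1 rose and 3 were not called. Of 8 mitochondrial members 4 fell and 4 were not called, and of 4 Dnaja genes 3 fell and 1 was not called. No difference between families or compartments was tested. Of the 83 genes, 30 rose and 25 fell (edgeR quasi-likelihood test, Benjamini-Hochberg adjusted p under 0.05 over all 13124 genes). Over all genes tested, 32.1% rose and 30.7% fell (62.8% either way), so the 66.3% of chaperone genes called is near the background. Their median log2 change was 0.09, against 0.03 for all genes. The groups did not overlap for 56 of the 83, against 69.2% of all genes. Scaling by library totals in place of TMM moved the median of all genes to 0.23. It gave 40 higher and 19 lower chaperone genes, and 5586 higher and 3095 lower of all 13124 genes. The balance of rises and falls therefore depends on the scaling, for all genes as for these, and the family results are relative to it.

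Against isotype, 4 of 6 small heat shock protein genes fell under each antibody, and 8 of 9 CCT genes fell with anti-G-CSFR and 7 with anti-C5. Under each antibody 6 of 8 mitochondrial members, 4 of 8 endoplasmic reticulum members and 3 of 4 Dnaja genes rose. With anti-G-CSFR, 26 of the 83 rose and 34 fell against isotype (edgeR; 63.5% of all genes called, 31.5% higher and 32.0% lower), with a median log2 change of −0.10 against −0.02 for all genes. With anti-C5, 26 rose and 28 fell (edgeR; 60.3% of all genes called, 30.5% higher and 29.8% lower), with a median of −0.05 against −0.01. The groups did not overlap for 62 of 83 genes under anti-G-CSFR (67.2% of all genes) and for 51 under anti-C5 (62.7% of all genes). With library totals the splits became 18 higher and 42 lower, and 20 higher and 36 lower, and the medians of all genes −0.23 and −0.19. Of all genes, 3107 were then higher and 5554 lower with anti-G-CSFR, and 3106 higher and 5111 lower with anti-C5. All 3 comparisons use the same isotype kidneys, so a rise against sham and a fall under an antibody are not separate observations.

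**Figure D1:**
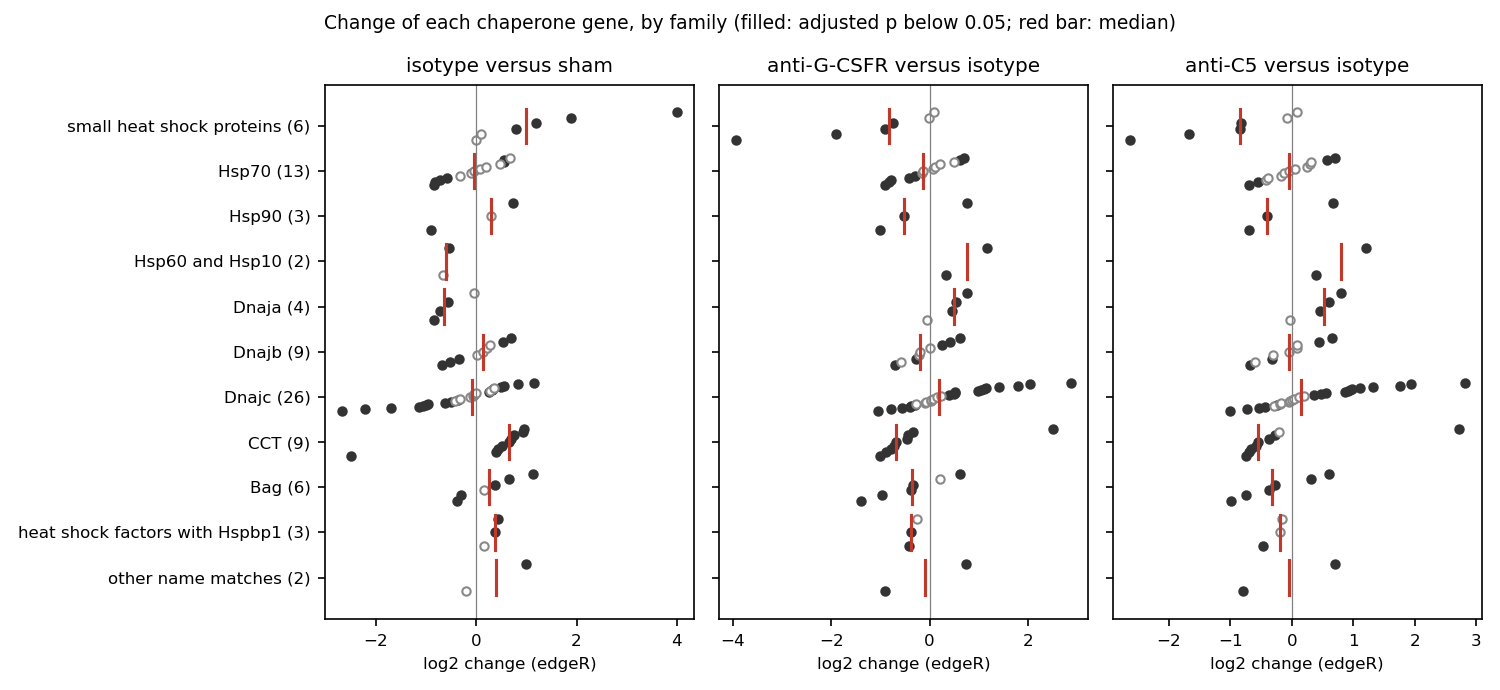
Log2 change of each of the 83 genes (x axis, edgeR) in the 3 comparisons with the isotype kidneys, grouped by family on the y axis with the number of genes in brackets; filled points have an adjusted p below 0.05, open points do not, and red bars are family medians. CCT and small heat shock protein genes lie mostly to the right in isotype versus sham and to the left under both antibodies, and Dnajc genes spread from −2.67 to 1.14 in isotype versus sham.

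Of the 6 small heat shock protein genes 4 rose with injury, and none fell, with a median log2 change of 1.00. Hspb1 codes for Hsp27, which binds unfolded proteins and actin filaments, and lies at chr5:135887919-135889563 (GRCm38, + strand). It stood at 8.24, 11.7 and 9.04 CPM in sham, 122, 176 and 166 in isotype, 6.34, 8.80 and 15.3 under anti-G-CSFR and 11.00, 54.7 and 9.12 under anti-C5. Every isotype kidney was far above the other 9, and kidney 11 stood alone between them. The log2 change was 4.00 ± 0.60 (SE) against sham (edgeR adjusted p = 0.000158), the largest rise of the 83. Against isotype the changes were −3.94 ± 0.60 with anti-G-CSFR (edgeR adjusted p = 0.000188) and −2.63 ± 0.56 with anti-C5 (edgeR adjusted p = 0.00179), or −3.94 without kidney 11.

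Cryab codes for alpha-B crystallin, a small heat shock protein first known from the lens and abundant in muscle. It stood at 132, 188 and 172 CPM in sham, 543, 590.2 and 697 in isotype, 142, 183 and 167 under anti-G-CSFR and 179, 214 and 179 under anti-C5. The isotype kidneys were all above the rest, and kidney 11 was the highest of the other 9. Its change on the log2 scale was 1.89 ± 0.16 against sham (edgeR adjusted p = 5.22e-06, the smallest of the 83), −1.90 ± 0.16 with anti-G-CSFR (edgeR adjusted p = 6.63e-06) and −1.68 ± 0.16 with anti-C5 (edgeR adjusted p = 1.48e-05). Cryab, at chr9:50751325-50756636 (GRCm38), overlaps Hspb2 on the opposite strand over 1030 bp. The kits were strand-specific, but the sources do not say whether strand was used in counting, so reads of the 2 genes may be mixed. Hspb2 itself, at 1.66 to 3.32 CPM in the 12 kidneys, had a log2 change of −0.004 against sham and was not called.

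Hspb8, which works with Bag3 in clearing damaged proteins by autophagy, was lower in level, at 5.96, 6.88 and 5.55 CPM in sham, 15.00, 13.5 and 13.8 in isotype, 4.16, 6.56 and 11.9 under anti-G-CSFR and 6.07, 10.5 and 7.27 under anti-C5. Kidneys 9 and 11 again were the highest of their groups. It rose by 1.20 ± 0.31 log2 against sham (edgeR adjusted p = 0.00494) and fell with anti-G-CSFR (−0.91 ± 0.30, edgeR adjusted p = 0.0206) and anti-C5 (−0.83 ± 0.30, edgeR adjusted p = 0.0330). With anti-G-CSFR the call was lost without kidney 7 (log2 change −0.61) or 8 (−0.82; edgeR adjusted p = 0.0705 and 0.0723), and the change was −1.37 without kidney 9. With anti-C5 it was lost without kidney 4, 5, 6, 10 or 12, with log2 changes of −0.86 to −0.67 (edgeR adjusted p = 0.0591 to 0.119). Over the alternative settings its adjusted p ran from 0.000168 to 0.169 and from 0.000830 to 0.263. Hspb7, a heart and muscle member at 3.17 to 8.47 CPM, rose by 0.80 ± 0.29 (edgeR adjusted p = 0.0312), but isotype kidney 4, at 3.17 CPM, was below every sham kidney. Its call was lost without kidney 1, 2, 3, 5 or 6 (edgeR adjusted p = 0.0601 to 0.153, and 0.000240 to 0.258 over the alternatives), and without kidney 6 the change was 0.53. Its falls with anti-G-CSFR (−0.75) and anti-C5 (−0.84) were lost without any of 9 kidneys (1, 2, 3 and 5 to 10; edgeR adjusted p = 0.0521 to 0.196, with a change of −0.48 without kidney 6) and of 4 kidneys (5, 6, 10 and 11; edgeR adjusted p = 0.0532 to 0.133). Hspb6, at 13.3, 10.9 and 13.8 CPM in sham and 8.39, 15.5 and 16.7 in isotype, gave 0.09 ± 0.26 and was not called (edgeR adjusted p = 0.767).

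**Figure D2:**
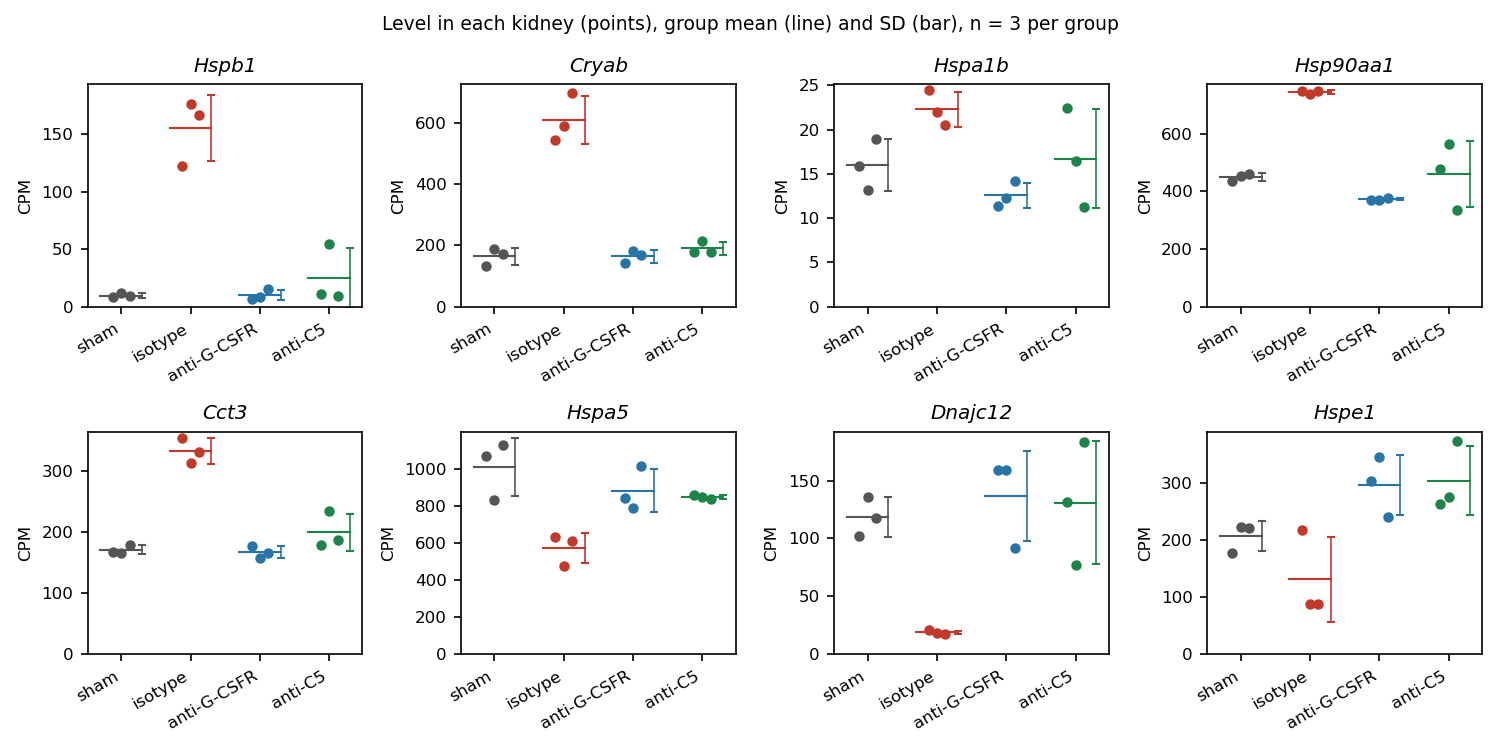
CPM (y axis, linear and from 0) of 8 genes in each of the 12 kidneys, by group on the x axis; points are kidneys, lines are group means and bars are the SD, n = 3. The isotype kidneys lie above all others for Hspb1, Cryab, Hsp90aa1 and Cct3 and below all others for Hspa5 and Dnajc12, while Hspa1b overlaps between isotype and anti-C5 and isotype kidney 4 stands apart for Hspe1.

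The Hsp70 family moved in both directions, 2 of 13 rising and 4 falling with injury (median −0.05, or 0.15 with library totals), against 32.1% and 30.7% of all genes. The stress-inducible Hsp70 pair, Hspa1a and Hspa1b, was not called against sham. Hspa1a stood at 6.10, 6.42 and 8.36 CPM in sham, 15.1, 9.40 and 8.79 in isotype, 5.62, 5.89 and 6.28 under anti-G-CSFR and 13.8, 6.15 and 5.49 under anti-C5. Hspa1b stood at 15.9, 13.2 and 18.97, 24.4, 21.99 and 20.5, 11.4, 12.3 and 14.2 and 22.4, 16.4 and 11.3 CPM in the same order. For both genes the 3 isotype kidneys were above the 3 sham kidneys, and kidney 10 under anti-C5 was as high as isotype. These values in every kidney, and those of other genes outside the rule for named genes, were picked after they were seen. The log2 change against sham was 0.68 ± 0.32 for Hspa1a (edgeR adjusted p = 0.0842) and 0.48 ± 0.21 for Hspa1b (edgeR adjusted p = 0.0643). Both passed without kidney 10 (edgeR adjusted p = 0.0182 and 0.0291), and Hspa1b also without kidney 3 or 12 (edgeR adjusted p = 0.0445 and 0.0223); over all alternatives the adjusted p ran from 0.0182 to 0.454 and from 0.0187 to 0.823.

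Against isotype, Hspa1b fell by 0.83 on the log2 scale with anti-G-CSFR (edgeR adjusted p = 0.00531) and Hspa1a by 0.91 (edgeR adjusted p = 0.0283). The Hspa1a call was lost without kidney 4, 7, 8 or 9 (edgeR adjusted p = 0.056 to 0.12; 0.00426 to 0.191 over the alternatives). With anti-C5 the changes were −0.39 and −0.41, not called, and without kidney 10 they were −0.93 and −0.69 (edgeR adjusted p = 0.0101 and 0.0132; 0.0101 to 0.981 and 0.0132 to 1 over the alternatives). The 2 genes are nearly identical in sequence, so the split of reads between them is uncertain.

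Hspa8, the constitutive Hsp70 of the cytosol, was the second most abundant of the 83 per length, at 361 CPM per kb of exon in sham. Length was that of all annotated exons joined (4301 bp for Hspa8, 2999 bp for Hsp90ab1), so ranks between genes depend on it. Hspa8 stood at 1793, 1371 and 1495 CPM in sham and 1654, 1037 and 1040 in isotype. Its log2 change of −0.32 ± 0.19 was not called (edgeR adjusted p = 0.167). Kidney 4 lay within the sham range and the other isotype kidneys below it: without kidney 4 the change was −0.58 (edgeR adjusted p = 0.00796; 0.00796 to 1 over the alternatives). Hsph1, of the Hsp110 class that exchanges nucleotide on Hsp70, fell by 0.58 ± 0.16 (edgeR adjusted p = 0.00858), at 212, 179 and 195 CPM in sham and 164, 117 and 110.0 in isotype. It lost its call with library totals. Its relative Hspa4l rose by 0.55 (edgeR adjusted p = 0.0102), which did not pass without kidney 6 (edgeR adjusted p = 0.0533), and Hspa4 gave 0.09 and was not called. With anti-G-CSFR Hspa4 fell by 0.30 (edgeR adjusted p = 0.0301), which did not pass without kidney 4, 5, 7 or 8 (edgeR adjusted p = 0.0518 to 0.107; 0.00450 to 1 over the alternatives).

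Hspa12a and Hspa12b, distant Hsp70 relatives, moved apart. Hspa12a fell, from 33.9, 32.7 and 30.2 CPM in sham to 18.6, 18.2 and 17.5 in isotype, with 30.2, 28.9 and 28.5 under anti-G-CSFR and 32.3, 28.6 and 27.3 under anti-C5. The 3 isotype kidneys were close to each other and below the other 9. Its log2 change was −0.83 ± 0.09 against sham (edgeR adjusted p = 1.75e-05), and 0.69 and 0.70 under the antibodies (edgeR adjusted p = 6.76e-05 and 8.05e-05). Hspa12b, known from endothelial cells, stood at 5.76, 6.81 and 6.03 CPM in sham, 9.11, 10.5 and 7.90 in isotype, 6.41, 6.19 and 7.94 under anti-G-CSFR and 6.63, 6.51 and 5.64 under anti-C5, and rose by 0.56 ± 0.16, with kidney 9 just above the lowest isotype kidney (edgeR adjusted p = 0.00828). In the same kidneys 8 endothelial markers summed to 520 to 601 CPM in sham and 640.1 to 858 in isotype. Of these, edgeR called Eng, Flt1, Pecam1 and Cdh5 higher and Tek lower (log2 change −0.41), and did not call Kdr, Emcn or Egfl7. The part of these markers in the rise of Hspa12b was not tested. The fall of Hspa12b with anti-G-CSFR (−0.42) was lost without kidney 4, 5, 7 or 8 (edgeR adjusted p = 0.0504 to 0.144), and that with anti-C5 (−0.55) without kidney 5 (edgeR adjusted p = 0.0531; 0.00390 to 0.713 over the alternatives). Hspa2, best known from the testis, was low at 2.67 to 6.43 CPM and fell by 0.72 ± 0.21 (edgeR adjusted p = 0.00991), which did not pass without kidney 1 (edgeR adjusted p = 0.0504; 0.00507 to 0.281 over the alternatives).

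The 2 cytosolic Hsp90 genes are near copies with different control: Hsp90aa1 is the stress-inducible form and Hsp90ab1 the constitutive one. Hsp90aa1 stood at 434, 454 and 461 CPM in sham, 747, 738 and 748 in isotype, 369.7, 370.3 and 376 under anti-G-CSFR and 477, 564 and 336 under anti-C5. The isotype kidneys were close to each other and the highest, and the anti-G-CSFR kidneys were all below sham. Hsp90aa1 rose by 0.73 ± 0.16 against sham (edgeR adjusted p = 0.00163). It fell by 1.00 with anti-G-CSFR (edgeR adjusted p = 0.000211) and changed by −0.70 with anti-C5 (edgeR adjusted p = 0.00241). Hsp90ab1, the most abundant of the 83 per length at 480.5 CPM per kb in sham, went from 1411, 1426 and 1486 CPM to 1664, 1798 and 1832 in isotype. Its change of 0.29 ± 0.12 was just outside the threshold (edgeR adjusted p = 0.0520) and passed in 11 of 23 alternatives (range 0.00574 to 1), among them those without kidney 4, 10, 11 or 12 (edgeR adjusted p = 0.0345 to 0.0479). It fell by 0.52 with anti-G-CSFR and by 0.41 with anti-C5 (edgeR adjusted p = 0.00298 and 0.0125), the latter lost without kidney 12 (edgeR adjusted p = 0.0514; 9.39e-05 to 1 over the alternatives).

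The genes for chaperones inside the endoplasmic reticulum, 8 of the 83, had 4 falls and 1 rise with injury (median −0.39), and 4 rises and 1 fall under each antibody (medians 0.35 and 0.31). Of all genes, 30.7% fell with injury, and 31.5% and 30.5% rose with anti-G-CSFR and anti-C5. Hspa5 codes for BiP, the Hsp70 of this compartment, and lies at chr2:34771970-34777547 (GRCm38, + strand). It stood at 1068, 830.2 and 1127 CPM in sham, 632, 477 and 608 in isotype, 842, 789 and 1015 under anti-G-CSFR and 859, 846 and 836 under anti-C5. All 3 isotype kidneys were below the other 9. Hspa5 changed by −0.82 ± 0.16 against sham (edgeR adjusted p = 0.000816), 0.62 with anti-G-CSFR (edgeR adjusted p = 0.00440) and 0.57 with anti-C5 (edgeR adjusted p = 0.00842, and 0.0549 with library totals, in a range of 0.000523 to 0.663 over the alternatives).

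Hsp90b1, the Hsp90 of the endoplasmic reticulum, fell from 778, 776 and 944 CPM in sham to 459, 422 and 458 in isotype, with 688, 736 and 855 under anti-G-CSFR and 745, 681 and 697 under anti-C5. Dnajc3, a J-domain protein that also restrains the stress kinase PERK, fell from 338, 316 and 351 to 165, 143 and 149.5 CPM, with 313, 291 and 296 and 284, 254 and 323 under the antibodies. Dnajb11, a J-domain partner of BiP, fell from 126, 127 and 154 to 93.4, 76.05 and 83.4 CPM, with 127, 132 and 130.5 and 133, 122 and 143. In each of these 3 genes the isotype kidneys were below the other 9. The log2 changes against sham were −0.90 ± 0.13, −1.14 ± 0.11 and −0.69 ± 0.11 (edgeR adjusted p = 9.21e-05, 9.68e-06 and 0.000227). They were 0.77, 0.98 and 0.62 with anti-G-CSFR and 0.67, 0.91 and 0.66 with anti-C5, each called by edgeR.

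Hspa5, Hsp90b1 and Dnajc3 are the 3 genes of the 66 whose window holds the endoplasmic reticulum stress element shown above for 2 of them, and all 3 fell with injury. Of the 63 without it 25 rose and 17 fell. Of the 14 with GAANNTTC, 4 rose (Hspb1, Hspb8, Cct2 and Bag3), 4 fell (Dnaja1, Dnaja4, Hspd1 and Hsph1) and 6 were not called, against 21, 16 and 15 of the 52 without it. The 4 with the 3-unit element are Dnajb6, Hspd1, Hspe1 and Hsph1, of which 2 fell and none rose. The 17 genes without a window are not counted here. Among them are Cryab, Hsp90aa1, Hsp90ab1 and Hspa8 from the list for Hsf1 given below, of which Cryab and Hsp90aa1 rose. No test was made of these counts.

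Among the other endoplasmic reticulum members, Dnajc10, a J-domain protein with disulfide reductase domains, rose by 0.34 ± 0.09 (edgeR adjusted p = 0.00557). Its fall with anti-C5 (−0.24) was lost without kidney 5, 6, 10 or 12 (highest edgeR adjusted p 0.122). Dnajb9, which keeps the stress sensor Ire1 in check, stood at 72.9, 63.5 and 58.5 CPM in sham and 55.1, 85.02 and 94.8 in isotype and was not called (0.27 ± 0.18). Without kidney 4, the lowest of its group, the change was 0.47 (edgeR adjusted p = 0.00899; 0.00899 to 1 over the alternatives). Hspa13 and Dnajc1 gave −0.10 and −0.04 and were not called in any of the 3 comparisons.

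The 8 mitochondrial members had 4 falls and no rise with injury (median −0.55), and 6 rises and no fall under each antibody (medians 0.75 and 0.71). Of all genes, 30.7% fell with injury, and 31.5% and 30.5% rose with anti-G-CSFR and anti-C5. Hspd1 and Hspe1 code for the Hsp60 folding chamber of the matrix and its Hsp10 lid, and lie head to head on chromosome 1 with 112 bp of overlap. Hspd1 stood at 801, 789 and 843 CPM in sham, 630.1, 529 and 508 in isotype, 714, 714 and 678 under anti-G-CSFR and 803, 749 and 649 under anti-C5. Kidney 4 was again the nearest of its group to sham. Hspd1 fell by 0.55 on the log2 scale (SE 0.12, edgeR adjusted p = 0.00222), a call kept in all 12 fits that left out 1 kidney. Its rises of 0.34 with anti-G-CSFR and 0.40 with anti-C5 were lost without kidney 5, 6, 7 or 8 (edgeR adjusted p = 0.0756 to 0.114) and without kidney 5, 6 or 10 (edgeR adjusted p = 0.053 to 0.0631), and both were lost with library totals (0.399 and 0.141), in ranges of 0.00383 to 1 and 0.000720 to 1 over the alternatives.

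Hspe1 stood at 177, 222 and 221 CPM in sham, 217, 88.1 and 87.6 in isotype, 303, 345 and 240.5 under anti-G-CSFR and 263, 274 and 373 under anti-C5. Kidneys 5 and 6 were below 90 CPM and kidney 4 was inside the sham range. Its change against sham, −0.66 ± 0.31, was not called (edgeR adjusted p = 0.0809), and was −1.23 without kidney 4 (edgeR adjusted p = 0.000247; 0.000247 to 0.472 over the alternatives). With anti-G-CSFR it rose by 1.18 ± 0.31 and with anti-C5 by 1.21 ± 0.31 (edgeR adjusted p = 0.00594 and 0.00551). Both Hspd1 and Hspe1 have related pseudogenes in the genome, and the sources do not say how reads with several matches were counted.

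Dnajc30, Dnajc19 and Dnaja3, J-domain proteins of mitochondria, fell by 1.06, 1.01 and 0.56 on the log2 scale (SE 0.12, 0.23 and 0.11; edgeR adjusted p = 2.14e-05, 0.00263 and 0.00117). Dnajc30, which acts at the ATP synthase, stood at 31.8, 36.01 and 32.6 CPM in sham and 15.6, 16.4 and 16.4 in isotype, and Dnajc19, a partner of the import motor, at 58.4, 68.1 and 77.8 and 46.8, 26.7 and 27.97. Dnajc19 overlaps Fxr1, Dnaja3 overlaps Coro7 and Dnajc30 overlaps Bud23 on the opposite strand, with the limit on strand given for Cryab. Dnajc15, also tied to the import motor, stood at 49.5, 59.7 and 56.99 in sham, 60.7, 30.9 and 31.5 in isotype, 92.3, 102 and 72.5 under anti-G-CSFR and 69.6, 71.2 and 102 under anti-C5. Kidney 4 was just above the sham kidneys and kidneys 5 and 6 below them: the change was −0.43 ± 0.25, not called, and −0.83 without kidney 4 (edgeR adjusted p = 0.00244; 0.00244 to 0.897 over the alternatives). Dnajc15 rose by 1.11 and 0.97 under the 2 antibodies (edgeR adjusted p = 0.00218 and 0.00531), and its anti-G-CSFR kidneys were all above sham. Hspa9, the Hsp70 of the matrix, stood at 1075, 942 and 1099 CPM in sham and 949, 1018 and 1049 in isotype, and with Dnajc11 was not called in any of the 3 comparisons.

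**Figure D3:**
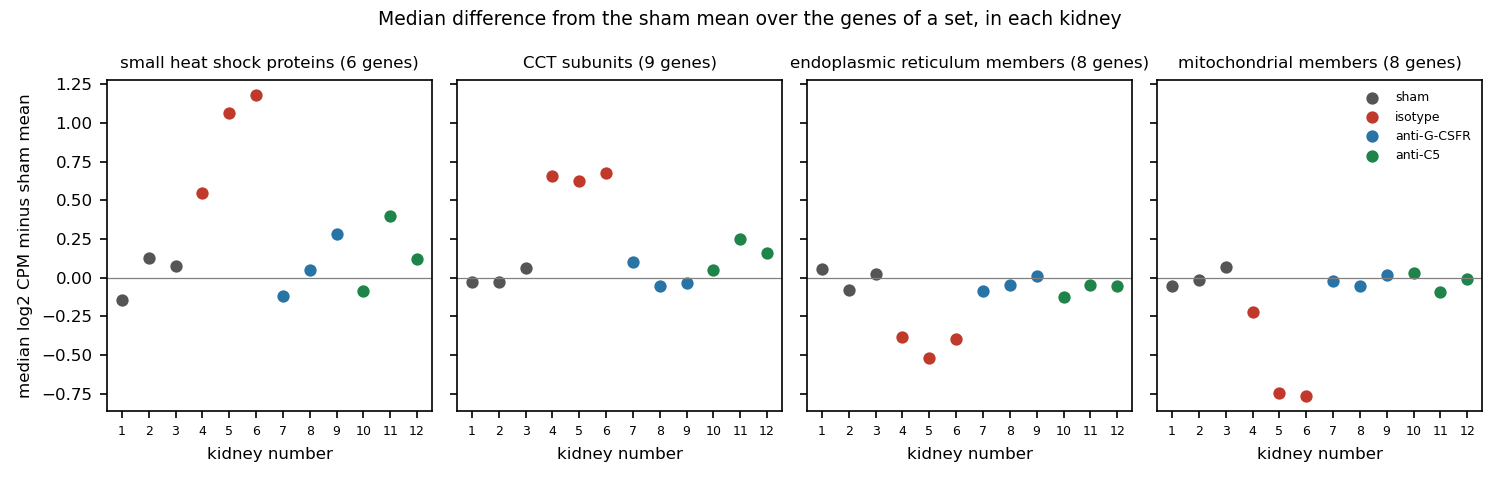
Median over the genes of a set of log2 CPM minus the mean of the sham kidneys (y axis) in each kidney (x axis, kidney number), coloured by group. Isotype kidneys lie at 0.63 to 0.68 for the CCT subunits and at −0.52 to −0.38 for the endoplasmic reticulum members, and kidney 4 lies nearer to sham than kidneys 5 and 6 for the small heat shock proteins (0.55, 1.06 and 1.18) and the mitochondrial members (−0.22, −0.75 and −0.76).

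By kidney, the sets did not move alike. The CCT median in isotype kidneys 4, 5 and 6 was 0.66, 0.63 and 0.68 above the sham mean, while the mitochondrial median was −0.22, −0.75 and −0.76. In kidney 11 the small heat shock protein median was 0.40 and the CCT median 0.25, and in kidney 9 they were 0.28 and −0.04. Those 2 kidneys had the highest injury marker sums of their groups, and the part of the injury marker level in these medians was not tested. Without kidneys 9 and 11, the chaperone calls were 26 higher and 30 lower with anti-G-CSFR, and 26 higher and 27 lower with anti-C5. Without kidney 4, 6 of the 8 mitochondrial members fell against sham, and 32 of the 83 genes rose and 28 fell in all. The shares of all genes called in these fits are not given here, so these counts cannot be set against a background.

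The 26 Dnajc genes spread from −2.67 to 1.14, with 7 rises and 10 falls against sham (median −0.09, or 0.11 with library totals). Of all genes tested, 32.1% rose and 30.7% fell in the same comparison. Dnajc12, a J-domain protein that helps to fold the aromatic amino acid hydroxylases, fell most of the 83; it lies at chr10:63382443-63410576 (GRCm38). It stood at 102, 136 and 118 CPM in sham, 20.3, 18.4 and 17.1 in isotype, 159, 159 and 91.5 under anti-G-CSFR and 132, 77.03 and 184 under anti-C5. The isotype kidneys were below all others, and kidneys 9 and 11 were the lowest of their groups. The log2 change was −2.67 ± 0.30 against sham (edgeR adjusted p = 2.12e-05), 2.87 ± 0.30 with anti-G-CSFR (edgeR adjusted p = 1.77e-05) and 2.81 ± 0.30 with anti-C5 (edgeR adjusted p = 2.57e-05). In the same kidneys all 10 proximal tubule markers fell with injury (median −2.97 against sham, edgeR). Loop of Henle and distal tubule markers summed to 7978 to 8720 CPM in sham and 3981 to 5764 in isotype, with Umod not called. Collecting duct markers summed to 758 to 793 and 340 to 388 CPM. The part of these tubule markers in the fall of Dnajc12 was not tested.

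Dnajc28 and Dnajc6, named after their values were seen, followed with falls of 2.22 and 1.70 on the log2 scale (SE 0.22 and 0.16; edgeR adjusted p = 1.16e-05 and 8.30e-06). Dnajc6 codes for auxilin, which strips clathrin from vesicles together with Hspa8, and went from 31.6, 42.2 and 33.3 CPM in sham to 10.8, 9.64 and 12.4 in isotype, with 33.4, 42.6 and 39.2 and 42.2, 30.7 and 38.7 under the antibodies. Dnajc28 went from 24.2, 24.3 and 21.5 to 3.89, 5.47 and 5.67, with 21.9, 21.03 and 18.5 and 23.7, 12.4 and 21.6. Kidney 11 was the lowest of the anti-C5 group for both. They rose by 1.81 and 2.04 with anti-G-CSFR and by 1.76 and 1.94 with anti-C5 (Dnajc6 first, each called by edgeR).

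Dnajc5, the cysteine string protein of secretory vesicles, rose most in its class, from 124, 110.4 and 113 CPM in sham to 206, 275 and 286 in isotype, with 119, 117 and 136 under anti-G-CSFR and 125, 149 and 111 under anti-C5. The isotype kidneys were above all others. The change was 1.14 ± 0.14 against sham (edgeR adjusted p = 4.62e-05). Dnajc5 fell by 1.00 with anti-C5, and its change with anti-G-CSFR was −1.04 (edgeR adjusted p = 0.000156 and 9.29e-05). Dnajc2, which sits on the ribosome and binds the new chain, rose by 0.83 ± 0.12 (edgeR adjusted p = 0.000132), from 42.4, 38.3 and 44.3 to 70.1, 72.4 and 79.2 CPM.

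Of the 4 Dnaja genes 3 fell with injury and rose under each antibody, in every fit that left out 1 kidney. Dnaja4 stood at 37.9, 39.8 and 41.9 CPM in sham, 25.5, 20.6 and 20.9 in isotype, 40.7, 42.8 and 29.8 under anti-G-CSFR and 41.5, 31.2 and 44.2 under anti-C5, with kidneys 9 and 11 the lowest of their groups. It fell by 0.84 ± 0.16 (edgeR adjusted p = 0.000792), and Dnaja1, the most studied J-domain partner of cytosolic Hsp70 in this class, by −0.72 ± 0.14 (edgeR adjusted p = 0.000728). Dnaja2 was not called, with −0.04 ± 0.09. The 9 Dnajb genes had 2 rises and 3 falls (32.1% and 30.7% of all genes), and no rise without kidney 2 or without kidney 6. Dnajb1, the heat-inducible J-domain protein, gave 0.14 ± 0.12 against sham and was not called. With library totals Dnajb1 passed against sham, and as a fall with anti-G-CSFR (edgeR adjusted p = 0.0231 and 0.00724). Dnajb5 rose by 0.69 ± 0.26 (edgeR adjusted p = 0.0387), from 5.50, 4.28 and 3.97 CPM to 6.00, 8.42 and 7.77, with 3.63, 4.77 and 6.43 and 4.30, 6.65 and 3.63 under the antibodies. That call was lost without kidney 2, 3, 5, 6 or 8 (edgeR adjusted p = 0.0511 to 0.121; 0.0114 to 0.388 over the alternatives).

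Genes of the CCT ring mostly moved together: of 9 genes 8 rose and 1 fell with injury, in the full set and in each of the 12 fits that left out 1 kidney (median 0.66). With anti-G-CSFR 8 fell and 1 rose (median −0.68), and with anti-C5 7 fell and 1 rose (median −0.55). The rises against sham ran from 0.39 (Cct4) to 0.96 (Cct3). Cct3 stood at 168, 166 and 179.6 CPM in sham, 355, 314 and 331 in isotype, 177, 158 and 166 under anti-G-CSFR and 179, 235 and 187 under anti-C5. The isotype kidneys were above all others and kidney 11 was next. Cct3 rose by 0.96 ± 0.12 against sham (edgeR adjusted p = 3.39e-05). It fell by 1.00 with anti-G-CSFR (edgeR adjusted p = 3.17e-05), and its change with anti-C5 was −0.74 (edgeR adjusted p = 0.000252). Tcp1, the alpha subunit, and Cct2, the beta subunit, rose by 0.51 ± 0.11 and 0.76 ± 0.10 (edgeR adjusted p = 0.00165 and 6.25e-05). With anti-C5 Cct4 was not called (−0.21), and the call of Cct6a (−0.28) was lost without kidney 4, 6 or 10 (highest edgeR adjusted p 0.115); with anti-G-CSFR that of Cct4 (−0.34) was lost without kidney 4, 8 or 9 (highest edgeR adjusted p 0.0928).

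The exception was Cct6b, a copy of the zeta subunit known mainly from the testis, which fell. It was scarce, at 1.68, 1.69 and 1.85 CPM in sham, 0.389, 0.123 and 0.382 in isotype, 2.25, 1.79 and 1.21 under anti-G-CSFR and 2.33, 1.37 and 2.40 under anti-C5. The log2 change was −2.50 ± 0.42 against sham (edgeR adjusted p = 0.000314), and per kb of exon Cct6b stood at 0.928 CPM in sham against 62.2 for the ubiquitous zeta subunit gene, Cct6a.

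Among the co-chaperones, 3 of 6 Bag genes rose and 2 fell, against 32.1% and 30.7% of all genes. Bag2, an inhibitor of the ubiquitin ligase Stub1, stood at 52.1, 35.2 and 35.5 CPM in sham, 116, 71.7 and 81.9 in isotype, 37.3, 33.2 and 32.2 under anti-G-CSFR and 27.8, 66.5 and 41.6 under anti-C5. Isotype kidneys were above all others, kidney 4 by the widest margin. The change was 1.13 ± 0.28 against sham, −1.39 with anti-G-CSFR and −0.99 with anti-C5 (edgeR adjusted p = 0.00391, 0.00116 and 0.00922). Bag3, a target of Hsf1 and partner of Hspb8, rose by 0.65 ± 0.14 and fell by 0.97 and 0.75 under the antibodies (edgeR adjusted p = 0.00162, 0.000137 and 0.000829). Bag1, the most abundant Bag gene per length, stood at 208, 247 and 235 CPM in sham, 193, 169 and 172 in isotype, 294, 298 and 228 under anti-G-CSFR and 269, 225 and 315 under anti-C5. Its fall of 0.37 (edgeR adjusted p = 0.0410) was lost without kidney 2, 3, 5, 6 or 10 (edgeR adjusted p = 0.0511 to 0.128) and with library totals (0.226), in a range of 0.00899 to 1 over the alternatives. It rose by 0.62 ± 0.14 and 0.60 ± 0.14 under the 2 antibodies (edgeR adjusted p = 0.00283 and 0.00384).

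Of the regulators, Hsf1 was not called in the 3 comparisons with isotype, with 26.3, 22.9 and 27.5 CPM in sham and 35.2, 25.8 and 24.7 in isotype (0.16 ± 0.14). With library totals it passed against sham (edgeR adjusted p = 0.0478, in a range of 0.0478 to 1 over the alternatives). Under that scaling it also passed as a fall with anti-G-CSFR (edgeR adjusted p = 0.0156). Hsf1 is controlled mostly by the state of the protein, which RNA does not measure. Hsf2 rose by 0.37 ± 0.13 (edgeR adjusted p = 0.0234), which did not pass without kidney 1, 2, 5 or 6 (edgeR adjusted p = 0.0611 to 0.113; 0.00154 to 1 over the alternatives). Hspbp1, a nucleotide exchange factor of Hsp70, stood at 28.7, 27.1 and 29.6 CPM in sham, 41.6, 36.3 and 36.8 in isotype, 30.7, 28.1 and 27.5 under anti-G-CSFR and 33.1, 35.9 and 31.7 under anti-C5, and rose by 0.43 ± 0.09 (edgeR adjusted p = 0.00167). It fell by 0.41 with anti-G-CSFR (edgeR adjusted p = 0.00213) and was not called with anti-C5 (−0.19).

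Per length the order of the genes differed between sham and isotype. Ranks between genes depend on the length used, all annotated exons joined, which can be longer than any single transcript. In sham, Hsp90ab1, Hspa8, Hspd1, Hspa9 and Hspa5 led at 480.5, 361, 307, 241 and 238 CPM per kb of exon. In isotype kidneys Cryab stood at 412 CPM per kb, behind Hsp90ab1 at 588 and above Hspa8 at 289, whereas in sham it stood at 111, behind 9 others. Hspb1 moved from rank 47 of the 83 in sham, at 9.36 CPM per kb, to 150.4 in isotype, above Hspa5 at 135 and Hsp90b1 at 111. Hsp90aa1 and Cct5, at 189 and 142 in isotype, were also above Hspa5 there and below it in sham. Group levels of neighbours such as Hspa9 and Hspa5 in sham differed by less than the spread between kidneys.

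**Figure D4:**
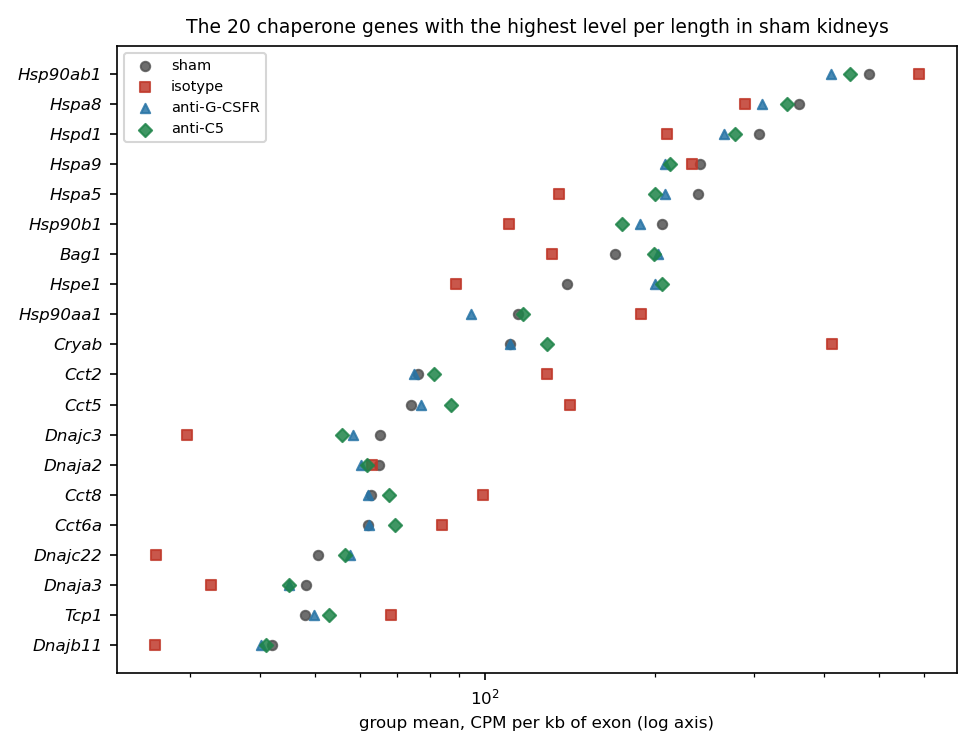
Group mean level per length (x axis, CPM per kb of exon, log axis) of the 20 of 83 genes with the highest sham level, ordered on the y axis by that level. Length is that of all annotated exons joined, and the order depends on it. Marks show the 4 groups, and Hspb1, at rank 47 in sham, is not drawn. Cryab in isotype, at 412, lies far to the right of its sham value of 111, and Hspa5, Hsp90b1 and Dnajc3 lie to the left of theirs.

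None of the 83 genes was called by edgeR in either antibody group against sham, or between the 2 antibodies. With anti-G-CSFR against sham, edgeR called 0 of 83 (0% of all genes called), with 4 at an unadjusted p under 0.05 against 5.93% of all genes. DESeq2 and limma-voom also called 0 of the 83, and 9 and 0 of all genes. At an unadjusted p under 0.05 they had 7 and 3 of the 83, against 815 and 771 of all 13124 genes. Fitted on the 6 compared libraries alone, edgeR called 43 of all genes and 0 of the 83. In that fit 13 of the 83 had an unadjusted p under 0.05, against 1604 of all 13124 genes. The smallest p values were those of Dnajc15 (0.68 ± 0.25), Hspb11 (0.53), Hsph1 (−0.38), Bag3 (−0.31) and Dnajc24 (0.52), and the edgeR adjusted p of each was 0.807. The 3 anti-G-CSFR kidneys lay outside the sham range for 19 of 83, against 18.4% of all genes.

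With anti-C5 against sham, edgeR called 0 of 83 (0% of all genes called), with 7 at an unadjusted p under 0.05 against 11.3% of all genes. DESeq2 and limma-voom called 0 of the 83, and 28 and 0 of all genes. They had 8 and 4 of the 83 under 0.05 unadjusted, against 1548 and 1362 of all genes. On the 6 compared libraries alone edgeR had 5 of the 83 under 0.05 unadjusted, against 1375 of all genes. The smallest p values were those of Dnajb14 (−0.26 ± 0.08, edgeR adjusted p = 0.371), Hspbp1 (0.24), Dnajc8 (0.22), Hspb1 (1.37) and Dnajc25 (0.27). For Hspb1, kidney 11 stood at 54.7 CPM and the other anti-C5 kidneys at 11.00 and 9.12. The groups did not overlap for 11 of 83, against 18.0% of all genes.

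In the direct comparison of anti-G-CSFR with anti-C5, edgeR, DESeq2 and limma-voom each called 0 of 83. Of all genes they called 0, 2 and 0 (0% for edgeR). At an unadjusted p under 0.05 edgeR had 4 of 83, all lower with anti-G-CSFR, against 1.58% of all genes (4 for DESeq2, 3 for limma-voom and 1 for edgeR on the 6 compared libraries alone): Dnajb1 (−0.30 ± 0.12), Hspbp1 (−0.22 ± 0.09), Cct3 (−0.26 ± 0.11) and Hspb1 (−1.31 ± 0.58), each with an edgeR adjusted p of 1. Dnajb14 was next (0.17 ± 0.08). Of all genes, 207, 142 and 105 were under 0.05 unadjusted by DESeq2, limma-voom and edgeR on the 6 compared libraries. Without kidney 11, 1 of the 83 stayed under 0.05 unadjusted (176 of all genes), and without kidneys 9 and 11, 0 (104 of all genes). The groups did not overlap for 5 of 83, against 4.28% of all genes. A p that misses the threshold with 3 kidneys a group does not show that levels were equal. Tested across all 4 groups at once, 60 of the 83 differed, against 61.0% of all genes (edgeR). The count was 43 to 60 in the fits that left out 1 kidney. Whether the 83 genes differ from the background was not tested.

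Genes of the folding machinery outside the symbol rule were taken from lists of textbook members, and no list was tested. Of 25 endoplasmic reticulum chaperones and folding enzymes 15 fell and none rose with injury (edgeR; 30.7% of all genes fell and 32.1% rose; median −0.47 against 0.03 for all genes), and 15 and 16 rose under the antibodies, with 2 falls in each. Herpud1, of the degradation machinery, fell by 1.65 ± 0.19, and Calr, the lectin chaperone calreticulin, by −0.98 ± 0.17 (edgeR adjusted p = 2.62e-05 and 0.000501). The disulfide isomerase gene Pdia4 fell by 0.98 ± 0.12 (edgeR adjusted p = 4.21e-05). Atf6, Ern1 and Xbp1, the sensors and a factor of the unfolded protein response, gave 0.17, 0.22 and 0.23 and were not called. The genes named from these lists were picked after their values were seen. Of 15 mitochondrial chaperones and proteases 6 fell, 1 rose and 8 were not called (median −0.22). Trap1, the mitochondrial Hsp90, fell by 0.95 ± 0.14 (edgeR adjusted p = 0.000119), and the rise was that of Htra2, a protease of the intermembrane space, by 0.43 ± 0.15 (edgeR adjusted p = 0.0215). Under each antibody 9 of the 15 rose.

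Of 11 prefoldin and phosducin-like partners, which bring clients to the CCT ring, 5 rose and none fell with injury (median 0.23), among them Pdcl3 (0.60 ± 0.09, edgeR adjusted p = 0.000163). Of 26 cytosolic co-chaperones 6 rose and 7 fell (median 0.01). Fkbp5, which responds to glucocorticoids, rose by 1.08 ± 0.27, and Fkbp4, its relative in the Hsp90 cycle, fell by 0.76 ± 0.14 (edgeR adjusted p = 0.00454 and 0.000566). Of 23 genes known to be bound and raised by Hsf1 in heat-shocked cells, 14 of them among the 83, 6 rose and 6 fell (median −0.002, against 0.03 for all genes). The 14 had 5 rises and 3 falls and the other 9 had 1 rise and 3 falls. The rise outside the 83 was Sqstm1, the autophagy receptor p62, by 1.21 ± 0.16 (edgeR adjusted p = 5.98e-05). With 32.1% and 30.7% of all genes called higher and lower, the list for Hsf1 was near the background in both directions.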

How the data were processed

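RNA of 12 whole kidneys, 3 in each of 4 groups, was read as 100 bp single-end reads from strand-specific libraries. The deposited values are raw read counts per Entrez gene, made by the authors with TopHat2 2.1.0, Bowtie2 2.2.5 and featureCounts on GRCm38.p4, per the submitters' processing notes; the sources used here give neither the strand setting, nor the treatment of reads with several matches, nor the annotation. The table holds 13124 genes, each with a third-highest CPM of at least 2.01. Symbols came from RefSeq (GRCm38.p6) through Entrez IDs (13074 matched; the 50 unmatched held 0.0811% of counts), and positions and exon lengths from GENCODE vM21 on GRCm38. Counts were fitted in 1 edgeR 4.0.16 model over 12 libraries (TMM, robust quasi-likelihood, 8 residual degrees of freedom), with Benjamini-Hochberg adjustment over all genes and calls below 0.05; filterByExpr removed 0 genes. The script was tested on simulated data. The biological coefficient of variation was 16.4%. SE is the log2 change divided by the root of F. No pair of libraries within a group was a duplicate (chi-square per degree of freedom 5.48 or more). Nothing says that kidneys of a group were handled separately, so p-values measure the spread between these samples.

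The genes, lists and tests were chosen with earlier results of these data known. Named genes are well-known members, the largest called rise and fall of each family, and the 5 smallest p in each comparison without an isotype group; others are said to be picked after their values were seen, or are Hspa4l, Hspb2, Hspa13, Dnaja2, Dnaja3, Dnajb6, Dnajc1, Dnajc2, Dnajc10, Dnajc11, Dnajc19, Dnajc30, Cct4 and Cct6a, also picked after. Alternatives were other scaling, filters, DESeq2 1.42.0, limma-voom (limma 3.58.1), fewer libraries, no robust option, a 1.5-fold test and leaving out kidneys.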

Additional observations from a re-analysis of the deposited data

How the results depend on the processing

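No paired analysis was possible because the kidneys are numbered 1 to 12 with no number shared between groups. No call of the 83 genes changed sign in any of the 23 alternatives. Against a change of 1.5-fold, edgeR called 9 higher and 10 lower in isotype versus sham, 10 and 9 with anti-G-CSFR and 9 and 3 with anti-C5. The share of all genes called in that test is not given here, so these counts cannot be set against a background. Leaving out 1 kidney gave 22 to 33 higher and 22 to 28 lower in isotype versus sham, 21 to 27 and 28 to 35 with anti-G-CSFR, and 23 to 28 and 22 to 28 with anti-C5; 21 of 30 rises and 21 of 25 falls against sham were kept in all 12 such fits. DESeq2 kept all 30 and 25. The other 3 pairs of groups gave 0 in each of these fits, and the test across 4 groups 43 to 60. In the comparisons with isotype and the 4-group test, shares of all genes called without a kidney or by DESeq2 are not given here. Those counts therefore cannot be set against a background either. Over 270 results for single named genes, each under the alternatives that gave a value, a call was lost 159 times, gained 60 times and kept its side of the threshold 5973 times. All lost and gained calls came from the comparisons with isotype kidneys. In the other 3 pairs no named gene was called in any fit, so those results add only to the last count. Levels near 2 CPM and 3 kidneys a group limit what could be detected.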
